A study of Mus musculus with 6 samples.

Results

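The neuronal and glial transcripts described here are 37 genes of 36163 gene names on a mouse expression array: 30 are grouped here as neuronal, 5 as glial, and 2, Ncam1 and L1cam, encode adhesion molecules of both. Some of the 30, among them Uchl1, Ddc and Hand2, are also made by cells other than neurons. They were chosen by values measured on these same arrays, namely how neuronal transcripts differed between replicate numbers and between the cell populations, so those differences are described for the members and not tested. All 37 had at least 1 probe carrying their name, 49 probes in all, and each gene is given by its brightest probe, the one with the highest mean log2 signal. Of the 37 genes, 31 had a signal that the scanner software marked as well above background on every array of a population, or of both, and are called the members tested. For 24 of them this held on all 6 arrays, and for 2 members, Chrna3 and Foxd3, on none.

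The cells came from the prostate of 6-day-old male FVB/N mice that carry Tg 11.5kb-GFP, a transgene in which the 11.5kb promoter of s-SHIP drives green fluorescent protein (GFP). After collagenase digestion, cells negative for the lineage markers Ter119, CD31 and CD45 and positive for Sca-1 and CD49f (LSC cells) were sorted into LSC GFP+ and LSC GFP- populations, with 3 samples and 3 arrays for each. Both populations thus carried the transgene, which is also active in vascular smooth muscle cells. Ter119, CD31 and CD45 mark erythroid, endothelial and blood cells, and none of them marks neurons or Schwann cells. The study reports that its LSC population held only epithelial cells positive for CD24, which it used as a pan-epithelial marker. How many mice made up a sample is not given in the sources used here.

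Nerve fibres of the pelvic ganglia run through the prostate stroma, ensheathed by Schwann cells, while the neurons' cell bodies lie in the ganglia. Growing neurons make microtubule regulators such as the stathmins, neurofilament subunits that fill the axon, and proteins of synaptic vesicles and of dense-core granules, which store peptides and amines. Outside neurons many of these genes are held silent by the repressor REST. The study also describes rare neuroendocrine cells dispersed in the basal layer of the prostate epithelium. Their part in the levels given here was not tested.

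Levels are log2 signals minus the 75th percentile of the array, so that a level can be compared across arrays for 1 probe but not between probes. Markers of the sorted cells were measured first. The mean level of 12 basal epithelial genes was 2.78, 2.92 and 2.83 on the LSC GFP+ arrays and 2.13, 2.07 and 2.17 on the LSC GFP- arrays of replicates 1, 2 and 3. Of these genes 7 were higher in LSC GFP+ at an unadjusted limma p under 0.05, where 3.38% of all 37005 probes tested were, and none after Benjamini-Hochberg adjustment, at which 1 probe of all (0.0027%) was called. The epithelial markers Epcam and Krt8, the latter of luminal cells, were well above background on all 6 arrays, between 5.49 and 5.94 and between 3.83 and 4.83. Stromal fibroblast and smooth muscle genes were also measured, and their values stand beside the neuronal ones further on.

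Probe sequences are shown for 3 members, since they bear on how far a level can be read. The Prph probe stands for the members that vary together, and it lies at the end of the coding sequence: its 60 bases make 20 codons in 1 frame, the last of them the stop codon, in capitals. The Snap25 probe and the brighter of the 2 Elavl4 probes hold runs of alternating bases, in capitals, and the other Elavl4 probe holds none. Of these latter probes 30 of the 60 bases are shown, on the strand of the transcript, 5′ to 3′, with positions of the build mm9 from the array design.
Prph, chr15:98889042-98889101, plus strand: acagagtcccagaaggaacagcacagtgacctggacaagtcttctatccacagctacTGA
Snap25, chr2:136607709-136607738, plus strand: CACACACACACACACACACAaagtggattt
Elavl4, brighter probe, chr4:109877465-109877494, minus strand: gtccttctgtTGTGTGTGTGTatgtgtaca
Elavl4, other probe, chr4:109878588-109878617, minus strand: ctttaccaccttccttgaaggtgggtcttt

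The neuronal transcripts with the widest spread over the arrays were those of the axonal cytoskeleton and growth cone, and they stood in the same order in both populations: replicate 1 highest, replicate 3 next and replicate 2 lowest. Within each replicate number they were higher in LSC GFP- than in LSC GFP+. Nefl, the light neurofilament subunit, had levels of 2.77, -3.01 and 1.37 in LSC GFP+ replicates 1, 2 and 3 and of 5.41, -0.09 and 2.40 in LSC GFP-. The LSC GFP- array thus exceeded the LSC GFP+ array of the same number 6.23-fold, 7.56-fold and 2.04-fold, yet the populations overlapped, because the replicates of 1 population differed more than the populations did. The difference of the population means was 2.19 ± 1.69 (SE, n = 3 and 3).

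Prph encodes peripherin, an intermediate filament of peripheral and autonomic neurons. Its levels were 0.61, -3.73 and 0.01 in LSC GFP+ and 3.41, -1.0 and 1.04 in LSC GFP-, an excess of 6.97-fold, 6.64-fold and 2.05-fold for replicates 1, 2 and 3. The probe is the coding one shown above. Nefm, the medium neurofilament subunit, followed the same order, with -0.28, -4.31 and -1.76 in LSC GFP+ and 1.88, -2.68 and -0.67 in LSC GFP-. LSC GFP+ replicate 2 was the only array on which its probe, printed in 10 spots, was not well above background.

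The heavy neurofilament subunit Nefh and the internexin Ina varied less. Nefh had -2.65, -3.75 and -2.88 in LSC GFP+ and -2.34, -4.13 and -2.84 in LSC GFP-, the same order of replicates with no constant direction between populations. Its second probe was above background on 3 arrays, LSC GFP+ replicate 1 and LSC GFP- replicates 1 and 3. Ina had -0.45, -0.73 and -1.34 in LSC GFP+ and -0.05, -0.68 and -1.08 in LSC GFP-, so that replicate 3 was lowest in both. A dimmer Ina probe put LSC GFP- replicate 2 lowest, at -4.31, with -2.64 in LSC GFP- replicate 1.

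**Figure D1:**
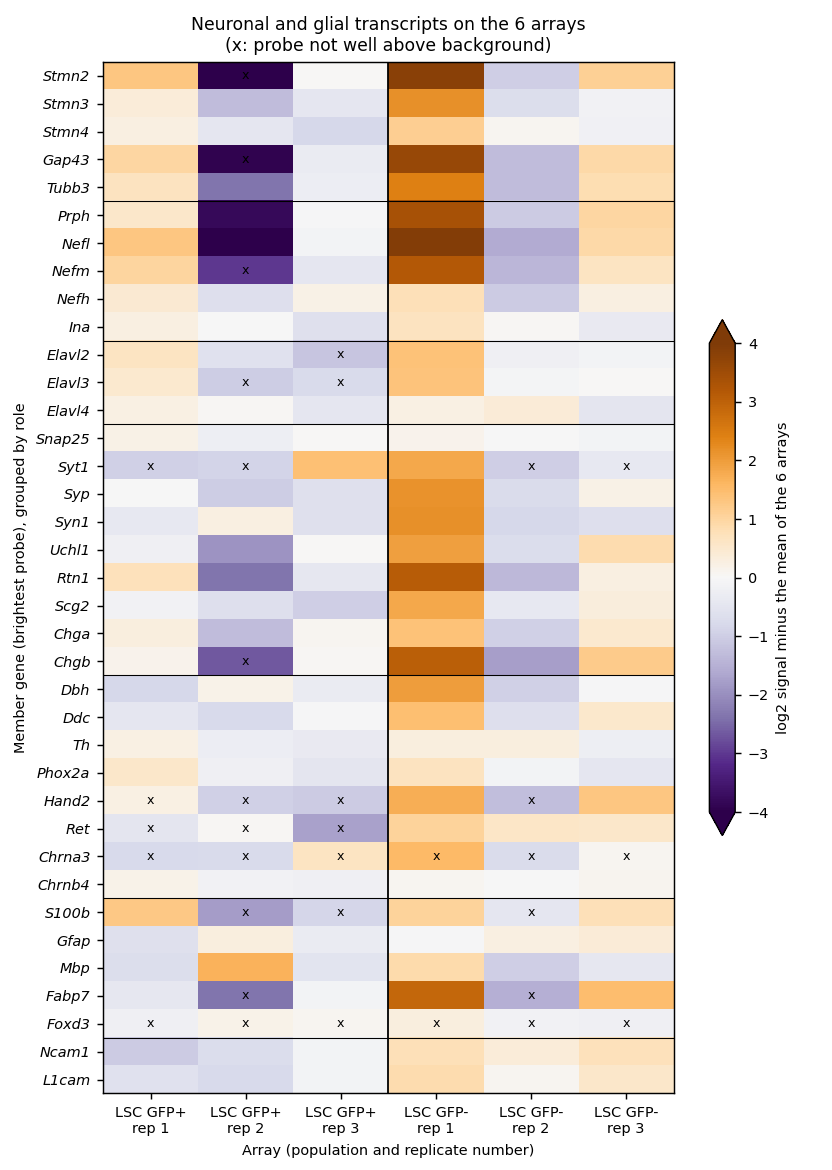
Colour shows the log2 signal of each of the 37 members (rows, brightest probe, grouped by role) on each of the 6 arrays (columns) minus that member's mean over the 6 arrays; an x marks a probe not well above background. The column of LSC GFP- replicate 1 is high and that of LSC GFP+ replicate 2 low for most microtubule, neurofilament and granule genes, while Elavl4, Snap25, Th and Chrnb4 are near white throughout.

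The microtubule and growth cone genes kept the same pattern in 4 of 5. Stmn2, a microtubule-destabilising protein of growth cones, had levels of 0.27 and -1.03 in LSC GFP+ replicates 1 and 3 and was not well above background in replicate 2. In LSC GFP- it had 2.80, -2.03 and 0.08. Gap43, the growth cone protein that is made again by regenerating axons, likewise was not above background in LSC GFP+ replicate 2, and had -1.58 and -2.88 in the other LSC GFP+ arrays and 1.04, -3.84 and -1.62 in LSC GFP-. For both genes the values of replicate 2 therefore give only an upper limit in LSC GFP+. Tubb3, the neuronal beta-tubulin, was above background on every array, with 3.01, 0.00 and 2.09 in LSC GFP+ and 4.78, 1.05 and 3.18 in LSC GFP-. The excess of LSC GFP- for Tubb3 was 3.40-fold, 2.07-fold and 2.12-fold for replicates 1, 2 and 3.

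Stmn3, a stathmin of neurons, showed the order again at a smaller scale, with -0.27, -1.92 and -1.08 in LSC GFP+ and 1.54, -1.31 and -0.79 in LSC GFP-. Stmn4 was the exception by its brighter probe, since replicate 3 was the lowest in both populations: 2.33, 1.61 and 1.24 in LSC GFP+ and 3.23, 2.16 and 1.89 in LSC GFP-. The dimmer probe had 1.52, 0.60 and 0.58 in LSC GFP+ and 2.92, 1.26 and 1.39 in LSC GFP-. By that probe replicate 2 was the lowest of LSC GFP-. Both Stmn4 probes, which overlap on the genome, gave LSC GFP- the higher value in all 3 pairs.

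**Figure D2:**
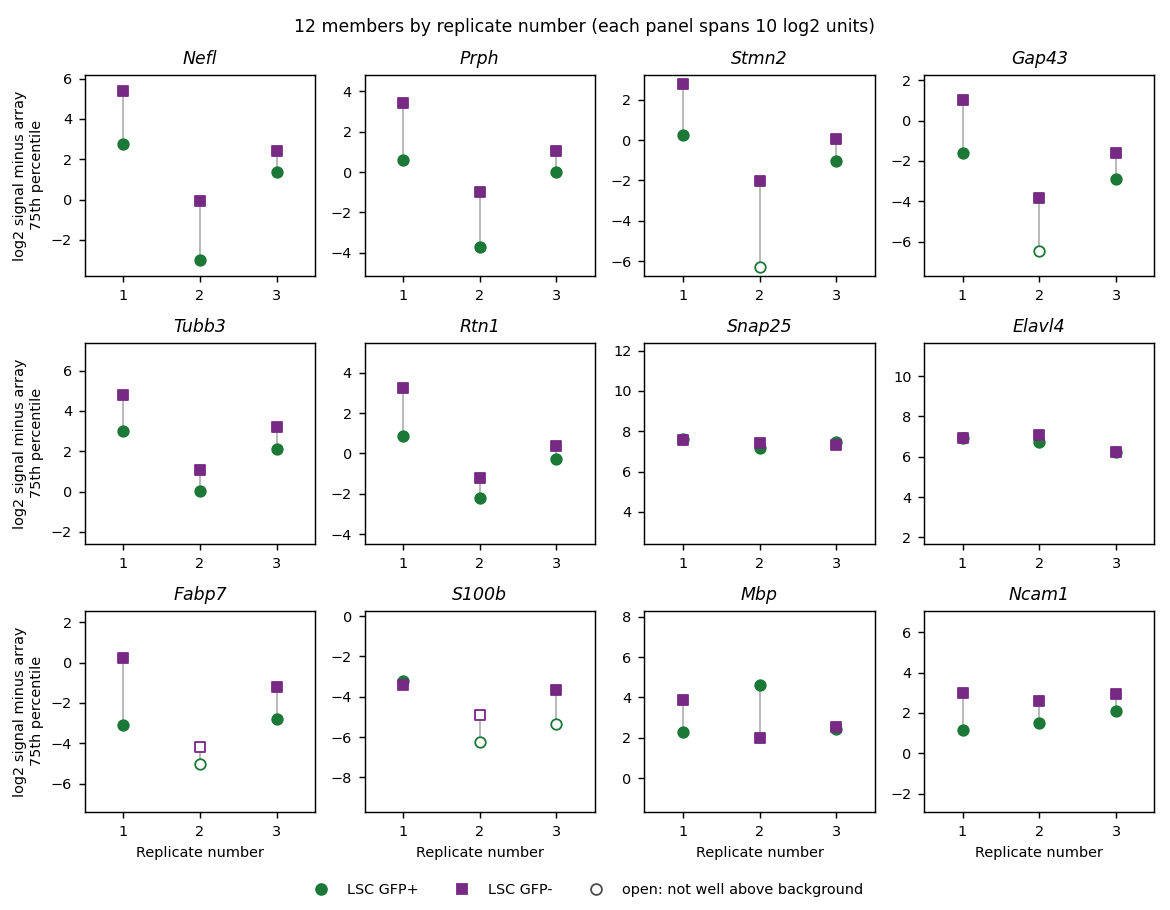
Each panel plots 1 member on the 6 arrays, the log2 signal minus the array's 75th percentile against the replicate number, with LSC GFP+ as circles, LSC GFP- as squares, a grey line between arrays of the same number, and open symbols for probes not well above background. The 6 members from Nefl to Rtn1 have replicate 1 highest and replicate 2 lowest in both populations, whereas Snap25 spans 0.43 and Elavl4 0.87 over all 6 arrays.

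The vesicle and granule genes split. Rtn1, a reticulon of the neuronal endoplasmic reticulum, followed the cytoskeletal genes closely, with 0.85, -2.23 and -0.30 in LSC GFP+ and 3.24, -1.23 and 0.39 in LSC GFP-. So did Chgb, a granin of dense-core granules, with 1.64, -3.19 and -0.20 in LSC GFP- and -1.27 and -1.36 in LSC GFP+ replicates 1 and 3, its probe in 10 spots not being above background in LSC GFP+ replicate 2. Chga, another granin, had -0.96, -2.53 and -1.16 in LSC GFP+ and 0.15, -2.21 and -0.77 in LSC GFP-. Syp, synaptophysin of the synaptic vesicle membrane, had 0.91, -0.10 and 0.31 in LSC GFP+ and 3.06, 0.18 and 1.12 in LSC GFP-.

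Uchl1, a deubiquitinating enzyme abundant in neurons and also made by neuroendocrine cells, had -0.48, -2.20 and -0.28 in LSC GFP+ and 1.66, -1.0 and 0.57 in LSC GFP-. Scg2, secretogranin II, had -1.61, -2.13 and -2.46 in LSC GFP+ and 0.35, -1.86 and -1.15 in LSC GFP-. Both were highest in LSC GFP- replicate 1 and higher in LSC GFP- in every pair, but the LSC GFP+ arrays of replicates 1 and 3 stood close together for Uchl1 and in the other order of 2 and 3 for Scg2. Syn1, a phosphoprotein that tethers synaptic vesicles, stood out on a single array: it had -0.64 in LSC GFP- replicate 1 and between -3.63 and -2.54 on the other 5. Syt1, the calcium sensor of vesicle release, was above background only in LSC GFP+ replicate 3 and LSC GFP- replicate 1, at -3.94 and -3.54.

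Snap25, a membrane protein needed for vesicle fusion, hardly varied, with 7.62, 7.19 and 7.44 in LSC GFP+ and 7.56, 7.42 and 7.31 in LSC GFP-. Its only probe is the one shown above that starts with 20 bases of CA repeat. The RNA-binding protein gene Elavl4 had 6.95, 6.76 and 6.26 in LSC GFP+ and 6.94, 7.10 and 6.23 in LSC GFP- by the probe with 11 bases of TG repeat, and its other probe was not above background on any array. Over the whole array, 366 of 55681 probes (0.657%) hold TGTGTGTG and 245 (0.44%) hold CACACACA, searched on the strand of the probe as given, and Snap25 and Elavl4 are the only members with either. Levels over 5 were measured for 43.7% of the probes with TGTGTGTG, 15.9% of those with CACACACA and 2.47% of all probes. The part of the repeats in the levels of Snap25 and Elavl4 was not tested.

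Elavl2 and Elavl3 encode related RNA-binding proteins of neurons, and their probes were dimmer. Elavl3 had -2.07, -3.52 and -3.43 in LSC GFP- and was above background in LSC GFP+ replicate 1 alone, at -2.95. Elavl2 had -1.89, -3.49 and -3.40 in LSC GFP- and -2.63 and -3.86 in LSC GFP+ replicates 1 and 2, and was not above background in replicate 3. A second Elavl2 probe was above background in replicates 1 and 3 of both populations and in neither replicate 2, with -0.77 in LSC GFP- replicate 1 and -3.56 in LSC GFP+ replicate 1.

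The genes of catecholamine synthesis and autonomic identity did not vary together. Th, tyrosine hydroxylase, which makes the first step of catecholamine synthesis, lay between 0.38 and 1.04 on all 6 arrays. Ddc, which acts after Th and is found in many tissues outside neurons, had -0.62, -0.95 and -0.19 in LSC GFP+ and 1.29, -0.79 and 0.35 in LSC GFP-. A second Ddc probe had LSC GFP- higher in replicates 1 and 2 and lower in replicate 3, at -2.55 against -2.48. Dbh, which makes noradrenaline, had -0.92 in LSC GFP- replicate 1 and between -3.88 and -2.74 on the other 5 arrays, a single high array as for Syn1. Phox2a, a transcription factor of autonomic neurons, had -1.12, -1.87 and -2.15 in LSC GFP+ and -1.0, -1.77 and -2.12 in LSC GFP-, with differences of at most 0.12 between arrays of 1 number. Chrnb4, a nicotinic receptor subunit, lay between -2.93 and -2.55, and its partner subunit Chrna3 was not above background on any array.

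Ret, the receptor tyrosine kinase through which the GDNF family acts on autonomic neurons, was not above background on any LSC GFP+ array and was so on all 3 LSC GFP- arrays, at -2.87, -3.33 and -3.37. On the population means it was at least 2.0-fold higher in LSC GFP-. For this lower bound, LSC GFP+ took the lowest signal well above background on each array, or the probe's own if higher. By the measured values the excess was 2.86-fold, 1.45-fold and 4.86-fold for replicates 1, 2 and 3. Ret passed the filter only through LSC GFP-, which favours this direction. Hand2, a transcription factor of sympathetic neurons that stromal cells also make, was above background in LSC GFP- replicates 1 and 3 only, at -3.87 and -4.31.

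Over the neuronal members that were above background on all 6 arrays, 20 genes, the mean level was 0.42, -0.86 and -0.12 in LSC GFP+ replicates 1, 2 and 3 and 1.80, -0.37 and 0.36 in LSC GFP-. The means of the populations were -0.19 ± 0.64 and 0.60 ± 1.11 (SD, n = 3 each), so they differed by less than the spread between replicates of LSC GFP-. LSC GFP- exceeded LSC GFP+ by 1.38, 0.49 and 0.48 on the log2 scale within replicates 1, 2 and 3. The number of probes well above background was 42123, 36651 and 38178 in LSC GFP+ replicates 1, 2 and 3, the same order as the neuronal mean. In LSC GFP- it was 37226, 41409 and 40658, another order with replicate 1 lowest. The part of detection in the neuronal levels was not tested.

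The range over the replicate numbers, taken as the highest minus the lowest of the means of the arrays with the same number, was 5.63 for Nefl and 4.38 for Prph. For Stmn2 and Gap43 it was 5.70 and 4.88 by the measured values, of which that of LSC GFP+ replicate 2 was not above background and is only a limit. The median over the 27 neuronal members tested was 1.51, and over all probes tested 0.48, both with values below background as measured. The 95th percentile of all probes was 1.27, and 17 of the 31 members tested were above it, all of them neuronal. Of the glial members only Gfap and Mbp were among the 31. The glial Fabp7 and S100b, which did not pass the filter, had ranges of 3.18 and 2.28, also with values below background as measured. With 1 array left out, the range was taken from the fit with population and replicate number, which adjusts the remaining array for population. Taken so, the median of the neuronal members was 1.21 without LSC GFP- replicate 1 and 2.35 without LSC GFP+ replicate 1.

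**Figure D3:**
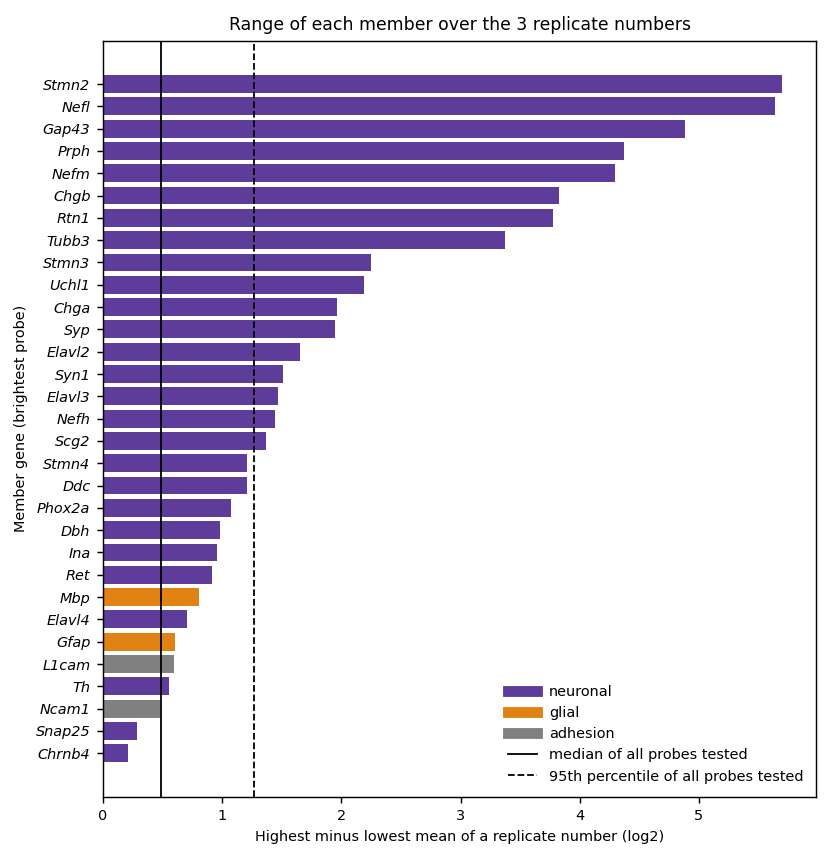
Bars give, for the 31 members tested, the highest minus the lowest of the 3 replicate-number means, on the log2 scale; the solid line is the median of all probes tested (0.48) and the dashed line their 95th percentile (1.27). The 8 widest, Stmn2 to Tubb3, exceed 3, and the glial and adhesion members tested, Gfap, Mbp, Ncam1 and L1cam, lie below the dashed line. The glial Fabp7 and S100b were not tested and are not drawn.

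The order with replicate 1 highest, 3 next and 2 lowest in both populations was found for 13 of the 31 members tested, and for 2.86% of all probes. By the F test of limma for replicate number beside population, 20 of 31 members passed an unadjusted p under 0.05, as did 26.4% of all probes. After adjustment 1 member, Nefm, passed (limma F test, adjusted p = 0.0496), as did 0.138% of all probes. The Nefm value of LSC GFP+ replicate 2 used there was not above background and is only a limit. LSC GFP- was above LSC GFP+ in all 3 same-numbered pairs for 23 of 31 members and for 17.1% of all probes. The 3 LSC GFP+ arrays lay below the 3 LSC GFP- arrays for 3 members, Ret, Ncam1 and L1cam, and for 5.65% of all probes. Of these members, Ret passed the filter only through LSC GFP-. The choice of the members used these contrasts, so the counts describe the members and support nothing beyond them.

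Between the populations, 3 of the 31 members were lower in LSC GFP+ at an unadjusted p under 0.05 by limma, where 4.53% of all probes were, and none was higher. With replicate number as a block, 19 of 31 were lower, where 8.06% of all probes were, and none was higher, where 6.75% were. No member passed after adjustment in either fit. Of the members lower with the block, Stmn2, Gap43, Nefm, Elavl2, Elavl3, Chgb and Ret passed the filter only through LSC GFP-. That filter favours LSC GFP- as the higher population for these genes. The count without the block was 12 without LSC GFP- replicate 2 and 6 without LSC GFP+ replicate 1. The median difference of the 27 neuronal members tested, LSC GFP+ minus LSC GFP-, was -0.87, and it was -0.28 without LSC GFP- replicate 1, -1.41 without LSC GFP- replicate 2, -1.31 without LSC GFP+ replicate 1 and -0.57 without LSC GFP+ replicate 2. Over the 20 neuronal members above background on all 6 arrays the median difference was -0.67, and over all probes -0.0044.

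**Figure D4:**
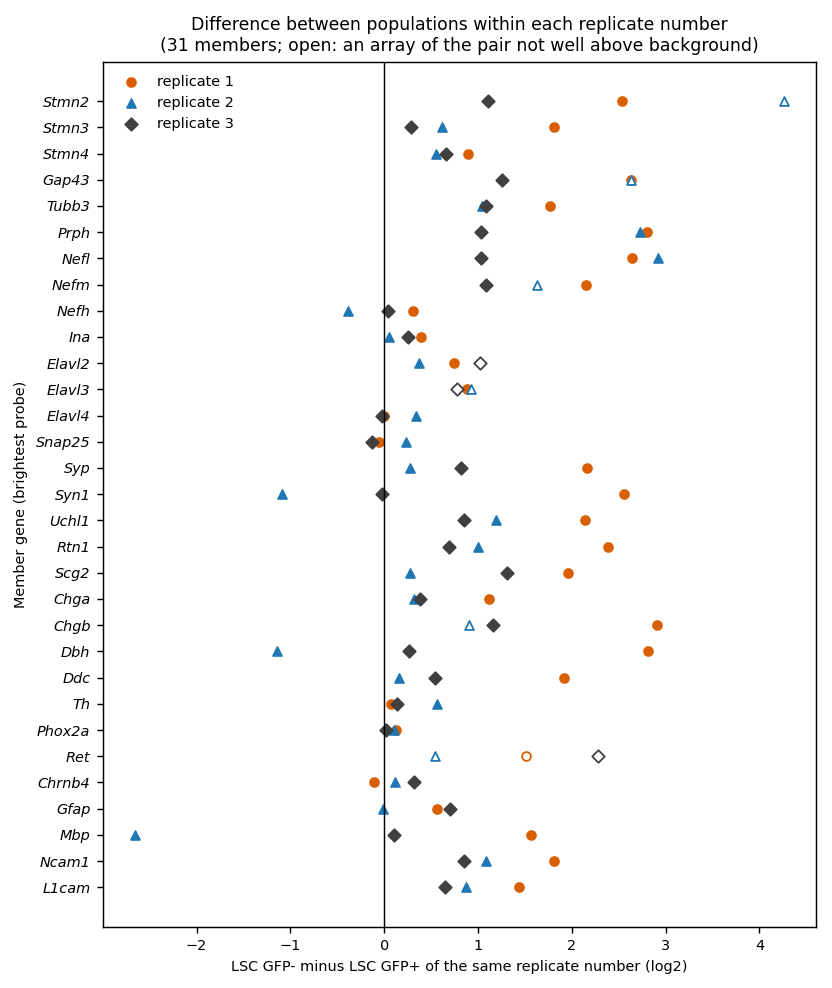
Points give the log2 signal of LSC GFP- minus that of LSC GFP+ for the arrays of replicate 1 (circles), 2 (triangles) and 3 (diamonds), for the 31 members tested; open symbols mark a pair in which an array was not well above background. For 23 members all 3 points lie right of zero, and for Syn1, Dbh and Mbp replicate 2 lies to the left by more than 1.

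The 5 glial members varied in different ways, and 2 of them, Gfap and Mbp, could be tested. Fabp7, a fatty acid-binding protein of Schwann cell precursors and radial glia, had -3.10 and -2.79 in LSC GFP+ replicates 1 and 3 and 0.22 and -1.20 in LSC GFP- replicates 1 and 3, and it was not above background in either replicate 2. S100b, a calcium-binding protein of Schwann cells, was above background in LSC GFP+ replicate 1 at -3.20 and in LSC GFP- replicates 1 and 3 at -3.41 and -3.69. The measured values of S100b, those below background included, had the order of the neurofilament genes in both populations. In the first pair S100b was not higher in LSC GFP-, whereas Fabp7 was 9.99-fold higher.

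Mbp, which encodes myelin basic protein, was highest in LSC GFP+ replicate 2, the array on which most neuronal members were lowest. Its brightest probe had 2.30, 4.63 and 2.45 in LSC GFP+ and 3.86, 1.98 and 2.55 in LSC GFP-. Its other probes did not vary in this way, 1 lying between -2.47 and -2.02 and the other between -0.44 and -0.14 on the 6 arrays. Gfap, the intermediate filament of astrocytes and of non-myelinating Schwann cells, lay between -4.09 and -3.11 by its brightest probe, and of its other probes 1 was above background on a single array and 1 on none. Foxd3, a transcription factor of neural crest and early glia, was not above background on any array. The median difference of Gfap and Mbp was -0.04 (LSC GFP+ minus LSC GFP-), and it took the other sign, at 0.26 and 0.15 without replicate 1 or 3 of LSC GFP+ and at 0.16 without replicate 1 of LSC GFP-.

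The adhesion members differed between the populations more than between replicates. Ncam1, the neural cell adhesion molecule, had 1.17, 1.5 and 2.10 in LSC GFP+ and 2.99, 2.59 and 2.95 in LSC GFP-. It was 2.38-fold higher in LSC GFP-, a difference of 1.25 ± 0.27 (SE) on the log2 scale, and a second probe gave the same direction without overlap, while its remaining probe was not above background on any array. L1cam, which promotes axon growth and binding between axons, had -1.07, -1.29 and -0.58 in LSC GFP+ and 0.37, -0.42 and 0.06 in LSC GFP-, a difference of 0.99 ± 0.28. Replicate 1 was not the highest of LSC GFP+ for either gene, and the range over replicate numbers was 0.47 for Ncam1 and 0.59 for L1cam.

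Genes outside the members were taken from lists of neuronal and glial genes, which share no gene with the members. These lists were also drawn up with results of these arrays known, so their direction is not independent evidence. Of 107 tested genes in 4 lists, 13 were lower and 1 was higher in LSC GFP+ at an unadjusted p under 0.05 by limma, where 4.53% and 3.38% of all probes were, and none passed after adjustment. With the replicate block 36 were lower and 3 higher, where 8.06% and 6.75% of all probes were, again with none after adjustment. Of those lower with the block, Gdap1, Npy, Vip, Nos1, Sst and Ednrb passed the filter only through LSC GFP-. Vip and Ednrb were also among those lower without the block. Of those higher with the block, Dhh passed only through LSC GFP+. The filter favours these directions for these genes. Without the block, the count of lower genes was 6 without LSC GFP+ replicate 2 and 32 without LSC GFP- replicate 2. Replicate number reached an unadjusted p under 0.05 for 51 of the 107, and for 1, Sst, after adjustment, against 26.4% and 0.138% of all probes. The counts of the single lists that follow are to be read against these same shares.

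Among 30 genes of the neuronal cytoskeleton and axon, 2 were lower in LSC GFP+ at the unadjusted threshold, 12 with the block, and 15 differed between replicate numbers. Kif5c, a kinesin heavy chain that moves cargo along axons, had 1.14, 1.07 and 1.14 in LSC GFP+ and 3.05, 2.10 and 2.26 in LSC GFP-, a difference of 1.35 ± 0.27 (SE; limma, adjusted p = 0.148). The LSC GFP+ arrays of Kif5c stood close together, unlike those of the neurofilament genes. The other was Nrsn1, a neuronal vesicle protein, with a difference of 1.19 ± 0.41 (limma, adjusted p = 0.466). Gng3, a G protein subunit, had the widest range over replicate numbers of the genes above background everywhere, 3.40, with -0.29, -3.39 and -1.52 in LSC GFP+ and 1.31, -2.39 and -1.20 in LSC GFP- (limma, adjusted p for replicate number = 0.114). Ndrg4, Kif5a and Crmp1 followed with ranges of 2.41, 2.37 and 2.34.

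Of 28 genes of synaptic vesicles and dense-core granules, 2 were lower in LSC GFP+ at the unadjusted threshold, 6 with the block, and 10 differed between replicate numbers. The 2 were Scg5, a granin-family chaperone, with a difference of 1.0 ± 0.42 (limma, adjusted p = 0.621), and Sv2b, a vesicle membrane protein, with 0.79 ± 0.32 (limma, adjusted p = 0.572). Syn2, the relative of Syn1, followed the neurofilament order with -0.32, -3.03 and -1.50 in LSC GFP+ and 1.81, -1.35 and -0.13 in LSC GFP-. Nsg2, Bsn and Cplx1 were the others with the widest ranges among those that passed, at 2.78, 1.79 and 1.40.

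Of the 4 lists, the autonomic genes had the largest share past the unadjusted threshold for replicate number, 16 of 23, and 5 were lower in LSC GFP+ at the unadjusted threshold and 12 with the block, while with the block 1 was higher. That gene, looked up after its value was seen, was Gfra1, a co-receptor that acts with Ret, at -2.09, -1.84 and -0.90 in LSC GFP+ and -2.55, -2.44 and -1.69 in LSC GFP-, a difference of 0.62 ± 0.14 (SE; limma with the block, adjusted p = 0.158). Gfra2, a related co-receptor, had -1.85, -3.28 and -2.21 in LSC GFP+ and 0.15, -2.02 and -1.16 in LSC GFP-, a difference of 1.44 ± 0.57 (limma, adjusted p = 0.566). The noradrenaline transporter Slc6a2 had a difference of 1.0 ± 0.42, the monoamine transporter Slc18a1 of 0.90 ± 0.27 and the transcription factor Gata2 of 0.99 ± 0.26 (limma, adjusted p = 0.607, 0.35 and 0.262), and Gata2 and Slc18a1 did not follow the neuronal order of replicates. Among receptors and peptides, Htr3a and Cartpt had the widest ranges over replicate numbers of the genes above background everywhere, 2.89 and 1.86.

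The peptide genes Sst, Npy and Vip were looked at after their values were seen, since they were not above background on every array. Sst, somatostatin, had -1.23 and -2.72 in LSC GFP+ replicates 1 and 3 and 0.66, -4.10 and -1.52 in LSC GFP-, and its replicate numbers differed by limma (adjusted p = 0.0237). Npy, neuropeptide Y of sympathetic neurons, had -1.48 and -2.05 in LSC GFP+ replicates 1 and 3 and 0.99, -2.91 and -0.77 in LSC GFP-. Neither was above background in LSC GFP+ replicate 2. Vip, the vasoactive intestinal peptide of parasympathetic neurons, was above background in 1 LSC GFP+ array, replicate 1 at -4.46, and on all LSC GFP- arrays, at 0.49, -3.75 and -2.23.

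Schwann cell and other glial genes numbered 26 tested, of which 4 were lower and 1 higher in LSC GFP+ at the unadjusted threshold, 6 and 2 with the block, and 10 differed between replicate numbers. Pmp22, a membrane protein of peripheral myelin that other cells make too, had a difference of 1.71 ± 0.32 (limma, adjusted p = 0.13) with LSC GFP- higher. Cldn11 and Apod were on the same side, with 1.17 ± 0.27 and 0.59 ± 0.21 (limma, adjusted p = 0.2 and 0.465). So was Ednrb, looked up after its value was seen, with 1.40 ± 0.49 (limma, adjusted p = 0.47). Ednrb passed the filter only through LSC GFP-, which favours this direction. It was not above background in LSC GFP+ replicate 2, so its difference uses a value there that is only a limit. Its measured values had the order of the neurofilament genes in both populations. Egr2, a transcription factor of myelination that is also induced in many growing cells, went the other way, by 1.0 ± 0.23 (limma, adjusted p = 0.211). Sox10, the defining transcription factor of Schwann cells, had -1.55, -2.48 and -1.96 in LSC GFP+ and -1.06, -2.16 and -0.79 in LSC GFP-, with a range of 1.02 over replicate numbers. Replicate 1 was highest, 3 next and 2 lowest in both populations for 2 of the 26, and for 2.86% of all probes.

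**Figure D5:**
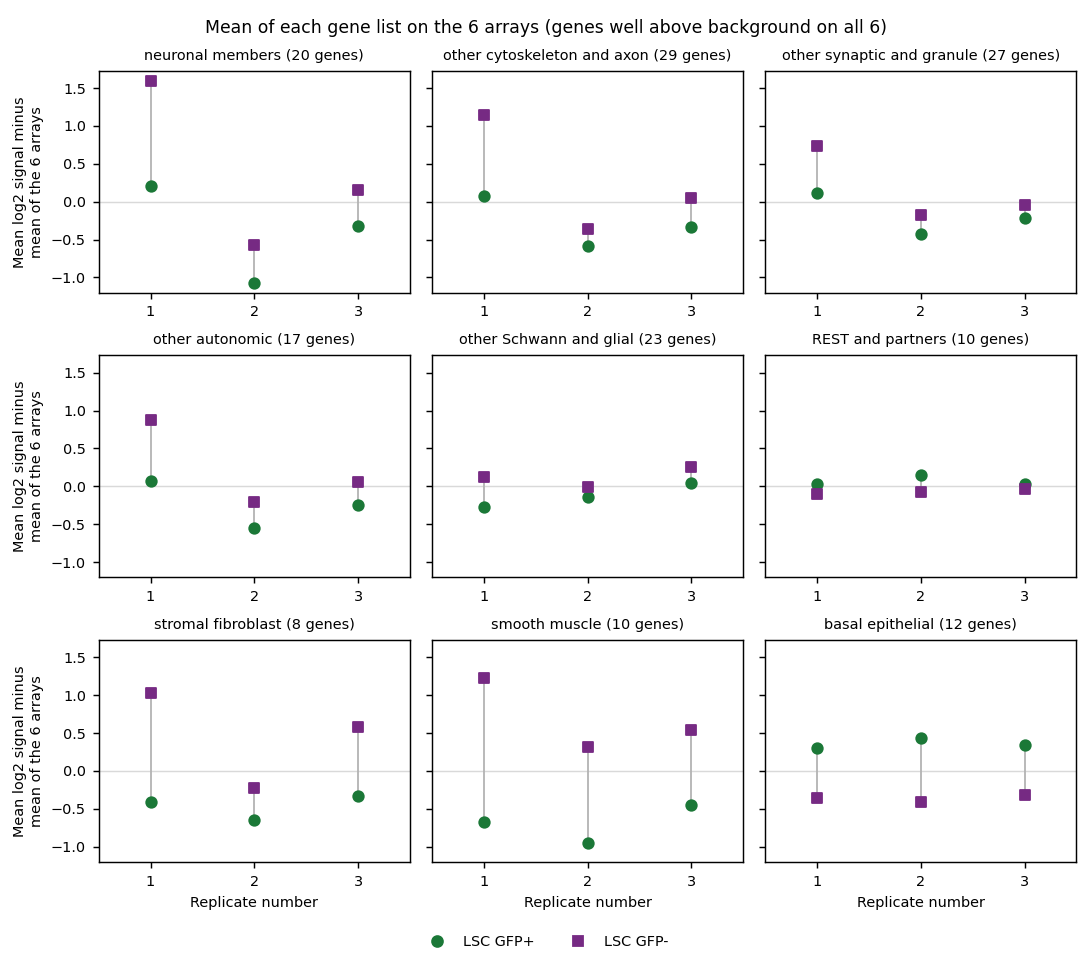
Each panel plots, against the replicate number, the mean log2 signal of a gene list on each array minus its mean over the 6 arrays, for genes well above background on all 6 (circles LSC GFP+, squares LSC GFP-). The neuronal panels share the order of replicates 1, 3 and 2, with LSC GFP- replicate 1 highest, whereas the Schwann and glial list and REST with its partners span 0.52 and 0.26 and the basal epithelial list is higher in every LSC GFP+ array.

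REST and its partners, 10 genes, varied little: their mean was 2.27, 2.39 and 2.27 in LSC GFP+ and 2.13, 2.17 and 2.21 in LSC GFP-. None passed an unadjusted p under 0.05 between populations by limma, and with the replicate block 1 did, the histone deacetylase Hdac2, also looked up after its value was seen, higher in LSC GFP+ by 0.36 ± 0.13 (SE; limma, adjusted p = 0.313). For replicate number 1 gene, the histone deacetylase Hdac1, passed that threshold. For Rest itself the difference was 0.14 ± 0.19 (limma, adjusted p = 0.996), with LSC GFP+ the higher.

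Markers of stroma moved with the neuronal genes in part. The mean of 8 stromal fibroblast genes was 0.50, 0.26 and 0.58 in LSC GFP+ and 1.94, 0.69 and 1.49 in LSC GFP-, and 6 of the 9 tested were lower in LSC GFP+ at the unadjusted threshold and 2 higher. The mean of 10 smooth muscle and pericyte genes was -0.66, -0.94 and -0.44 in LSC GFP+ and 1.24, 0.33 and 0.55 in LSC GFP-, with 9 of 10 lower in LSC GFP+. In LSC GFP- both lists had the order of the neuronal members, and in LSC GFP+ both were highest in replicate 3. Their part in the neuronal result was not tested. In bulk samples fewer cells of a type and less RNA per cell cannot be told apart.

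Genes most like the neuronal members were sought among 792 genes that were above background on all 6 arrays and spanned at least 2 log2 units, by the correlation over the 6 arrays with the mean of the 20 neuronal members. All points share the same 6 libraries, and the correlations are a description. The closest were Nrp2, a semaphorin receptor (r = 0.997), the serotonin receptor subunit Htr3a (0.994), Sult4a1 (0.989), the adhesion molecule Cadm3 (0.988) and the synuclein Sncg (0.985). Next came Nsg2, Gm5567, Scg3, Svop and Tmem179, down to 0.981, and 40 genes of the 792 exceeded 0.95. Nrp2 had -0.28, -2.61 and -1.02 in LSC GFP+ and 2.38, -1.40 and -0.21 in LSC GFP-. Of the members outside the neuronal set, Fabp7 had r = 0.927 with the same mean, S100b 0.807, L1cam 0.744, Ncam1 0.491, Foxd3 0.27, Mbp 0.04 and Gfap -0.27. Fabp7, S100b and Foxd3 were not above background on all 6 arrays, so their correlations include values below background.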

How the data were processed

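RNA of 3 LSC GFP+ and 3 LSC GFP- samples was amplified and hybridised to SurePrint G3 Mouse arrays, all on 1 slide with 1 scan time, so these could not be compared as batches. The deposited intensity values are the processed signals of Feature Extraction, version 11.0.1.1 per the file headers and 10.7.3.1 per the submitters' processing notes, background-subtracted on the linear scale and not normalized between arrays. The number of arrays sets the precision: with 3 in each population, the smallest exact permutation p is 0.1, and p-values measure only the spread between these samples.

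Outlier spots (123 to 154 per array) were dropped, the other spots of a probe were averaged as log2 signals, and each array was centred on its 75th percentile. Probes entered the fit when every array of one population, or of both, was marked well above background. A probe that passed through 1 population alone is favoured by this filter to be higher there. Populations were compared with limma 3.58.1 in R 4.3.3, and replicate numbers by an F test in the fit with population and replicate number. The methods' t-test, whose threshold has no correction, and other backgrounds, scalings, filters and samples were alternatives. Scripts were tested on simulated data. The deviations of same-numbered samples from the population means correlated at 0.43, 0.28 and 0.67, so the numbers, taken from the sample labels, were treated as pairs. LSC GFP+ replicate 1 and LSC GFP- replicate 2 correlated at 0.22, and the other unlike numbers between -0.55 and -0.09. The labels do not state that samples of 1 number share a sort or pool of animals, so the pairing is inferred from these same data.

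The members and gene lists were chosen with earlier results of these data known. Every member is reported by its brightest probe. Of other lists, the genes called after adjustment were named, then up to 4 with the largest difference or range over replicate numbers among those past the unadjusted threshold and above background on all 6 arrays. Results for endothelial, leukocyte, seminal vesicle and skeletal muscle lists stand in the closing section.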

Additional observations from a re-analysis of the deposited data

How the results depend on the processing

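The median difference of the neuronal members stayed negative under every alternative, from -1.41 to -0.28, both ends from leaving out 1 LSC GFP- array. The median of Gfap and Mbp was 0.13 with normexp background and 0.024 with array median scaling, and lay between -0.55 and 0.26 with 1 array left out, so it has no settled sign; the cause was not tested. The replicate block, which rests on the inferred pairing, raised the members lower in LSC GFP+ from 3 to 19. It raised the other neuronal and glial genes from 13 to 36, and none of either passed after adjustment. Leaving out 1 array gave 3 to 12 members and 6 to 32 other genes, and the methods' t-test 2 members and 8 other genes. The spread of the neuronal members over replicate numbers was between 1.01 and 2.35, and the other genes that differed between replicate numbers numbered 41 to 70. Members not above background on an array, such as Stmn2, Gap43, Nefm, Chgb, Elavl3 and Ret in LSC GFP+ replicate 2, have a limit there and not a level.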

Other observations

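Lists of other cell types were measured on the same arrays. Seminal vesicle and Wolffian duct genes had another order of replicates, with means of -1.34, -0.07 and 0.42 in LSC GFP+ replicates 1, 2 and 3 and 0.12, 0.90 and 1.26 in LSC GFP-, so that replicate 1 was the lowest in both populations, while it was the highest for the neuronal members. Of 7 tested, 3 were lower in LSC GFP+ at an unadjusted p under 0.05 by limma and 6 with the replicate block. Skeletal muscle genes had 4 of 5 lower in LSC GFP+, with means from -2.14 to -1.65 in LSC GFP+ and from -1.26 to -0.71 in LSC GFP-. That list shares Des with the smooth muscle and pericyte list, so the 2 are not separate. Of all probes 4.53% were lower in LSC GFP+ at the unadjusted threshold, and 8.06% with the block. No endothelial gene of 8 and no leukocyte gene of 10 differed between populations at the unadjusted threshold by limma. With the replicate block 1 endothelial gene was higher, as were 6.75% of all probes, and 1 leukocyte gene lower.

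The brightest probes of Dpysl5 in the cytoskeleton list and of Itgam in the leukocyte list also hold TGTGTGTG or CACACACA. Dpysl5 lay between 8.72 and 9.13 and Itgam between 7.73 and 8.17 on the 6 arrays, flat like Snap25 and Elavl4. Sv2a, whose probe holds such a run too, lay between -6.31 and -3.21.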
